A study of Homo sapiens with 6 samples.

Results

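The acute phase and complement genes are a set of 9 genes, SAA1, SAA2, LCN2, C3, CFB, C1R, C1S, CD55 and CD59, out of 20729 genes in the deposited count table. They were chosen by name, with the difference between the groups compared here already known, so that their levels in this contrast are a description and carry no test. SAA1 was not analysed here, and 8 members were measured. SW620, the labelled cell line, was established from a human colorectal cancer. The cells received an siRNA against OSBPL3 (siOSBPL3, 3 libraries) or a control siRNA (siNC, 3 libraries), and their total RNA was turned into libraries for paired-end RNA-seq. The dose and duration of the siRNA and its sequence are not given in the sources used here. Nor is it given whether the replicates are separate cultures, so a p-value here reflects only how far these libraries differ, and that may be technical variation.

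The acute phase is the change in secreted proteins that follows infection or injury. Cytokines such as IL-1, IL-6 and TNF switch it on through NF-kB, STAT3 and C/EBP factors, mostly in liver, but also in the epithelium of the inflamed gut. Complement is a cascade of serine proteases and their substrates that meets at C3. Its classical arm starts with the proteases C1r and C1s, its alternative arm uses factor B and factor D, and cells protect themselves with membrane regulators such as CD55 and CD59, which hang on a glycosylphosphatidylinositol (GPI) anchor.

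OSBPL3, the targeted gene, was lower in every siOSBPL3 library. Levels are given as CPM, read counts divided by a library size that was scaled by TMM (trimmed mean of M-values). OSBPL3 stood at 40.2, 12.2 and 15.1 CPM in siOSBPL3 replicates 1, 2 and 3, against 179, 174 and 175 CPM in siNC replicates 1, 2 and 3 (log2 fold change -2.97 ± 0.48 SE, adjusted p = 0.0016, edgeR quasi-likelihood test, -3.68 without siOSBPL3 replicate 1 and -2.28 once GC content and length were corrected for). The groups differed widely beyond this gene: 80.2% of the 15506 genes tested passed an adjusted p of 0.05, 40.4% higher and 39.8% lower in siOSBPL3. The correlation of log2 values across 11206 genes, which are not independent replicates, was 0.984 to 0.992 between siOSBPL3 libraries, 0.997 between siNC libraries and 0.584 to 0.598 between the groups. Total counts were 34569895 to 39701340 in siOSBPL3 and 30040020 to 33667128 in siNC, and mitochondrial transcripts took 7.80% to 7.97% and 6.43% to 6.54% of them. The effect of the siRNA and any other difference between the cells of the groups cannot be told apart in this design.

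The 13 markers of colorectal epithelium were all in the table and summed to 4920 to 6060 CPM in siOSBPL3 and 7110 to 7190 CPM in siNC, so the sum was lower in siOSBPL3. General epithelial markers were present in both groups, with EPCAM at 620 CPM in siOSBPL3 and 516 CPM in siNC, KRT8 at 2380 and 3000 CPM and KRT18 at 1130 and 2180 CPM. Intestinal markers were uneven: VIL1 averaged 62.6 CPM in siOSBPL3 and 482 CPM in siNC, KRT20, GPA33, CEACAM5 and CDX1 were under 1 CPM in siOSBPL3 and in siNC, and CDX2, an intestinal transcription factor, averaged 63.5 CPM in siOSBPL3 and 1.15 CPM in siNC. LGALS4 (9.08 CPM in siOSBPL3 and 0.404 CPM in siNC) and CDH17 (41.3 and 12.2 CPM) were also higher in siOSBPL3. Liver and neutrophils are the best known sources of the secreted members, so markers of other cells were read beside them. Of 10 hepatocyte markers 6 were in the table, summing to 53.0 to 62.4 CPM in siOSBPL3 and 76.2 to 79.9 CPM in siNC, nearly all of it SERPINA1 (58.2 and 73.8 CPM). ALB, the defining transcript of hepatocytes, was at 0.0185 CPM in siOSBPL3 and 0.0214 CPM in siNC. Of 9 leukocyte markers 7 were in the table, summing to 9.46 to 13.1 CPM in siOSBPL3 and 8.80 to 9.81 CPM in siNC, and single markers differed in opposite directions within that sum. PTPRC (CD45) was at 0.110 CPM in siOSBPL3 and 0.0832 CPM in siNC, CD14 at 3.06 and 0.278 CPM, ITGAM at 2.05 and 0.0213 CPM, and LYZ at 0.184 and 1.93 CPM. The part of these marker differences in the results on the members was not tested. In bulk RNA, fewer cells of a type and less RNA per cell cannot be told apart.

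Promoter windows from RefSeq (GRCh38.p14) were matched by symbol for 5 of the 9 members, LCN2, CFB, C1R, CD55 and CD59. CD59 had 4 windows and C1R had 2, and only the window at the outermost annotated start of each gene was searched. The 250 bases upstream of the start are shown for LCN2, CFB and CD55, which were higher in siOSBPL3, and for C1R, which was not. They lie at chr9:128149203-128149452 (plus strand) for LCN2, chr6:31945845-31946094 (plus) for CFB, chr1:207321428-207321677 (plus) for CD55 and chr12:7092446-7092695 (minus) for C1R. Each is printed 5′ to 3′ along the strand of its gene, with the letters of a searched motif in capitals.
LCN2: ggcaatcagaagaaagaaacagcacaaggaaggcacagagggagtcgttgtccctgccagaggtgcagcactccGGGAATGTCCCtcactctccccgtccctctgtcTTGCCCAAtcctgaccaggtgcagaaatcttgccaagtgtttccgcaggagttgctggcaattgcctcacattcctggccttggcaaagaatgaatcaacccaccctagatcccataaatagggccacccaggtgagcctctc
CFB: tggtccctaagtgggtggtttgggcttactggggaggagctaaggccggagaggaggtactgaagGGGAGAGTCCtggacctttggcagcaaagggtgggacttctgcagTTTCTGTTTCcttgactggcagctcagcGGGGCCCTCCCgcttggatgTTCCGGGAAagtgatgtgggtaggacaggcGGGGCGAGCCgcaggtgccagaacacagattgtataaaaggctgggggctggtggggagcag
CD55: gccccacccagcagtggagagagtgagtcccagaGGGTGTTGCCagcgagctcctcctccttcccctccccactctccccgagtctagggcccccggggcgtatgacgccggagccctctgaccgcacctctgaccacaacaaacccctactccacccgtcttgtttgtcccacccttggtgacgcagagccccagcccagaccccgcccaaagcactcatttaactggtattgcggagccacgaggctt
C1R: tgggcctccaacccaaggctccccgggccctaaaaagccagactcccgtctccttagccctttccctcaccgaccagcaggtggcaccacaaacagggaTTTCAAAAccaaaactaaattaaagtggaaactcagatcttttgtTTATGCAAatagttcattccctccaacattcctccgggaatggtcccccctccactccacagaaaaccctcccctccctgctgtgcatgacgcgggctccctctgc

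The letters searched, on both strands, were GGGNNNNNCC for NF-kB, TTNNGNAA for C/EBP, TTCNNNGAA for STAT dimers and GAAANNGAAA for the interferon-stimulated response element (ISRE). The LCN2 window held the NF-kB letters at -176 to -167 bases from the start, overlapping a second match on the other strand from -175 to -166, and the C/EBP letters at -143 to -136. The CFB window held 4 NF-kB matches, a pair of which overlap, a STAT match at -92 to -84 and an ISRE match at -140 to -131. CD55 held 1 NF-kB match and C1R a pair of C/EBP matches, while CD59 held a STAT match. NF-kB letters were thus in 3 of 5 windows, against 54.4% of all 35116 promoter windows of the same length. The C/EBP letters were in 2 of 5 windows and in 33.2% of all windows, the STAT letters in 2 of 5 and 6.57%, and the ISRE letters in 1 of 5 and 3.02%. A match is a description of letters and shows no binding.

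Of the 8 measured members, 6 were at least 2-fold higher in siOSBPL3 by the fitted fold change, a size reached upward by 25.3% of all genes tested. The values of those 6, SAA2, LCN2, C3, CFB, CD55 and CD59, did not overlap between the groups, which held in that direction for 41.5% of all genes tested. The classical pathway proteases C1R and C1S had lower means in siOSBPL3, by less than 2-fold. C1S values did not overlap between the groups, in a direction where 41.5% of all genes did not overlap either, and C1R values did. Since the members were picked on this contrast, nothing is read from these counts. The median log2 fold change was 2.56 over the 8 members and -0.0009 over all genes tested. All 8 passed the filter on low counts, SAA2 and LCN2 only through their siOSBPL3 libraries, so that these 2 had to differ once they were tested.

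**Figure D1:**
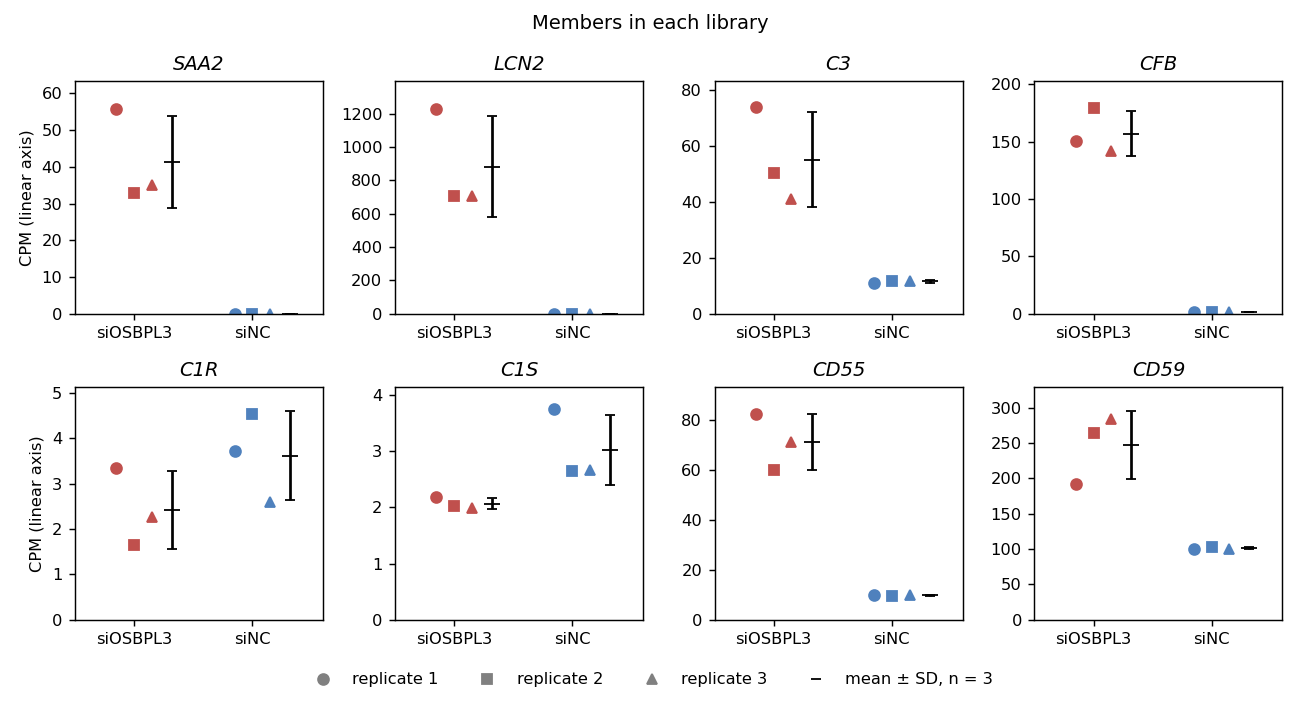
Level of each measured member in every library, in CPM on a linear axis that starts at 0 in each panel. Symbols mark replicates, and the bar beside them is the mean ± SD (n = 3). SAA2, LCN2 and CFB lie near 0 in siNC, while C1R and C1S stay under 5 CPM in every library.

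Of the secreted members, LCN2 had the highest level in siOSBPL3, though not in siNC. It encodes lipocalin-2, an antibacterial protein that withholds iron by binding siderophores, stored in neutrophil granules and made by inflamed epithelium. LCN2 stood at 1232, 709.6 and 705 CPM in siOSBPL3 replicates 1, 2 and 3, against 0.122, 0.151 and 0.303 CPM in siNC replicates 1, 2 and 3. Every siOSBPL3 library was far above every siNC library, and replicate 1 stood above the other siOSBPL3 libraries. In raw counts these are 98344 reads over the siOSBPL3 group and 18 over the siNC group, a ratio of 4660 after scaling with a 95% exact counting interval from 2950 to 7860. The fitted log2 fold change was 12.17 ± 0.39 (SE). With a correction for transcript GC content and length it was 11.33.

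SAA2 encodes serum amyloid A2, an apolipoprotein of high-density lipoprotein whose plasma level climbs steeply in the acute phase. Its gene lies on chromosome 11 (18238236 to 18248668, GRCh38.p14), beside SAA1 (18266264 to 18269967), and the readthrough gene SAA2-SAA4 is annotated over it. SAA2 stood at 55.9, 33.0 and 35.1 CPM in siOSBPL3 replicates 1, 2 and 3, against no count in any of the 3 siNC libraries. It was at least 1310-fold higher in siOSBPL3, taking the siNC group at a floor of 3 counts in all (0.031 CPM). Its fitted log2 fold change of 13.48 ± 0.55 rests on the prior count and is no bound: it was 9.49 with a prior count of 2, chosen after the data were seen, and 11.32 with limma-voom. SAA1 and SAA2 are close copies of each other, and how reads shared between them were counted is not given in the sources used here, so the SAA2 level is uncertain.

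The components of the C3 convertase were both higher in siOSBPL3, by very different amounts. C3, the central component that all arms cleave, stood at 73.9, 50.4 and 40.9 CPM in siOSBPL3 replicates 1, 2 and 3, against 11.0, 11.8 and 11.8 CPM in siNC. The lowest siOSBPL3 library was above the highest siNC library, and the log2 fold change was 2.26 ± 0.19 (4.78-fold). CFB encodes factor B, the protease that joins C3b in the alternative pathway convertase. It stood at 150.5, 179 and 141.5 CPM in siOSBPL3, against 1.28, 1.26 and 1.28 CPM in siNC. The siNC libraries were nearly alike, and the log2 fold change was 6.94 ± 0.14 (123-fold, counting interval 103 to 148). CFB lies beside C2 on chromosome 6, and GENCODE 29 annotates a readthrough gene over both, so reads of such transcripts could be shared between them.

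C1R and C1S encode the serine proteases of the C1 complex: C1r activates itself and cleaves C1s, which then cleaves C4 and C2. Both were expressed at a low level. C1R stood at 3.35, 1.64 and 2.28 CPM in siOSBPL3 replicates 1, 2 and 3, against 3.71, 4.55 and 2.60 CPM in siNC, with siOSBPL3 replicate 1 inside the siNC range. C1S stood at 2.19, 2.02 and 2.00 CPM in siOSBPL3, against 3.75, 2.65 and 2.66 CPM in siNC. All siOSBPL3 values of C1S lay under the siNC values, by a margin smaller than the spread within siNC. Log2 fold changes were -0.58 ± 0.31 for C1R and -0.55 ± 0.26 for C1S. Depth limits both genes: the siOSBPL3 libraries together held 271 reads of C1R and 232 of C1S, and the siNC libraries 350 and 290. Counting intervals of the ratio of siOSBPL3 to siNC ran from 0.561 to 0.776 for C1R and from 0.571 to 0.813 for C1S, and cover counting error only.

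The membrane regulators CD55 and CD59, which shield host cells, were higher in siOSBPL3. CD55, or decay-accelerating factor, takes apart C3 and C5 convertases. It stood at 82.4, 59.7 and 71.0 CPM in siOSBPL3 replicates 1, 2 and 3, against 9.74, 9.49 and 9.95 CPM in siNC, a log2 fold change of 2.87 ± 0.13 (7.31-fold). CD59, or protectin, keeps C9 from building the membrane attack pore. It stood at 193, 265 and 283.5 CPM in siOSBPL3, against 100.1, 103 and 100.4 CPM in siNC, a log2 fold change of 1.29 ± 0.13 (2.45-fold). For CD59 replicate 1 was the lowest siOSBPL3 library, whereas it was the highest for LCN2, SAA2, C3 and CD55.

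Levels of different genes can be compared only per length of transcript. Per kilobase of the longest protein-coding transcript in GENCODE 29, LCN2 stood highest in siOSBPL3 (1040 ± 357 CPM per kilobase, mean ± SD, n = 3). CFB (54.8 ± 6.82), SAA2 (40.4 ± 12.4), CD59 (32.4 ± 6.29) and CD55 (24.6 ± 3.93) followed, and in that order each overlapped its neighbour within 1 SD. C3 (10.5 ± 3.22) came next, and C1R (0.911 ± 0.325) and C1S (0.673 ± 0.0336) were last and overlapped. In siNC the order began with CD59 (13.2 ± 0.191), CD55 (3.36 ± 0.079) and C3 (2.19 ± 0.0895 CPM per kilobase). C1R (1.36 ± 0.368) and C1S (0.982 ± 0.204) followed and overlapped. CFB (0.445 ± 0.00298), LCN2 (0.226 ± 0.115) and SAA2, with no count, ended the siNC order. The transcript length used for CD59, 7631 bases, is that of its longest form, and a shorter form would raise its value.

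Ratios of counts within a library need no scaling between libraries, and they show how the balance of the members differed. There were 0.491, 0.282 and 0.289 reads of C3 for each read of CFB in siOSBPL3 replicates 1, 2 and 3, against 8.57, 9.29 and 9.21 in siNC. C3 reads thus outnumbered CFB reads in every siNC library, and the reverse held in every siOSBPL3 library. There were 2.34, 4.44 and 3.99 reads of CD59 for each read of CD55 in siOSBPL3, against 10.3, 10.8 and 10.1 in siNC. C1S over C1R was 0.653, 1.23 and 0.878 in siOSBPL3 and 1.01, 0.583 and 1.03 in siNC, ranges that overlap. SAA2 over LCN2 stayed between 0.0454 and 0.0498 in the siOSBPL3 libraries, although each of these genes differed by more than 1.5 times between those libraries. The ratios of C3 to CFB and of SAA2 to LCN2 were picked after the values were seen.

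**Figure D2:**
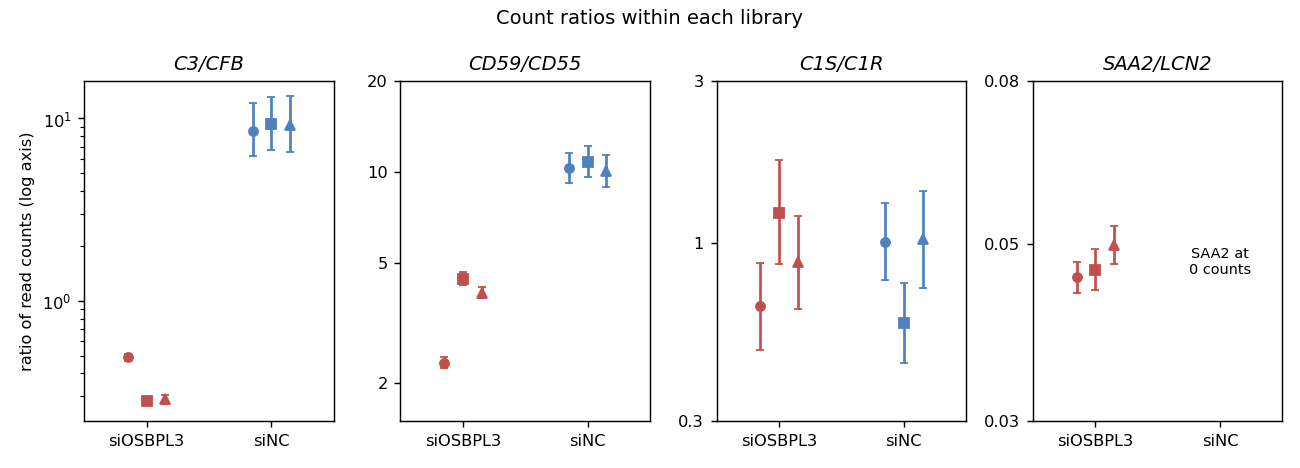
Ratio of read counts of 2 members within each library, on log axes that differ between panels. Bars are exact 95% counting intervals. The ratios of C3 to CFB and of CD59 to CD55 are lower in all siOSBPL3 libraries, the ratio of C1S to C1R overlaps, and SAA2 over LCN2 is near 0.0472 in siOSBPL3 and has no SAA2 count in siNC.

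The siOSBPL3 libraries were not alike, and the members divided on this. Replicate 1, which kept the most OSBPL3 transcript (22.8% of the siNC mean, against 6.93% and 8.61% in replicates 2 and 3), had the highest siOSBPL3 value of 6 of the 8 members. Its level over the mean of replicates 2 and 3 was 1.74 for LCN2, 1.64 for SAA2 and 1.62 for C3. These lie above the 95th percentile of 1.39 over 10571 genes with at least 5 CPM, whose 5th percentile was 0.734 and median 0.956. CD55 (1.26) and CFB (0.939) lay inside that span, and CD59 (0.703) lay under it. C1R (1.71) and C1S (1.09) averaged under 5 CPM, where counting noise is larger, and are not set against it. Replicate 1 was the highest of the siOSBPL3 libraries for 29.9% of those genes. The comparison of replicate 1 was chosen after the values were seen and has no replicate. Without replicate 1 the log2 fold change was 11.86 for LCN2 and 1.99 for C3.

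**Figure D3:**
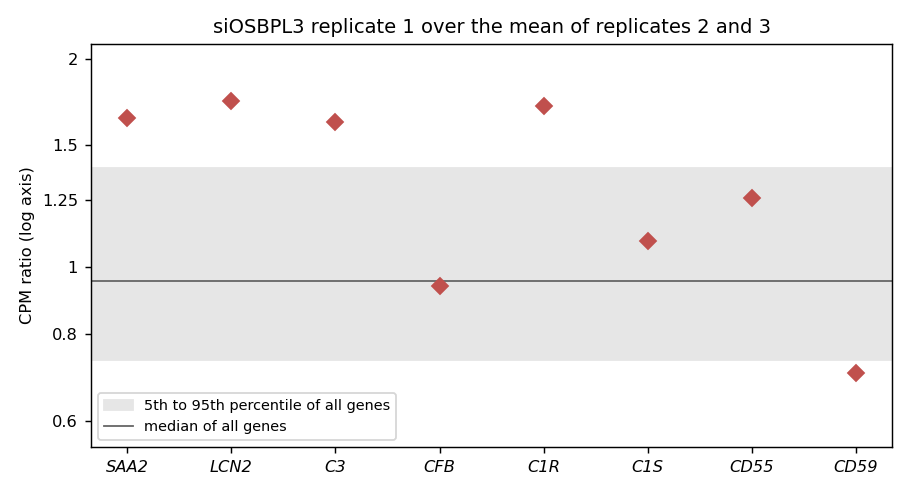
Level in siOSBPL3 replicate 1 divided by the mean of siOSBPL3 replicates 2 and 3, on a log axis, for each measured member. The grey band is the 5th to 95th percentile (0.734 to 1.39) and the line the median (0.956) of 10571 genes. LCN2, SAA2 and C3 lie above the band and CD59 under it. C1R and C1S average less than 5 CPM, the minimum for the genes of the band, and are not comparable with it.

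The genes whose profile over the 6 libraries was most like that of each member were then sought. Likeness was measured as the root mean square distance between log2(CPM + 0.5) values, each gene centred on its own mean, among all tested genes that averaged 5 CPM or more. The nearest to C3 were CPTP (0.084), CFD (0.095) and UNC13D (0.099). The nearest to LCN2 were the chemokine genes CXCL5 (0.434) and CCL5 (0.479) and the kallikrein gene KLK10 (0.598), and to CFB they were RNASE1 (0.095), FOXA1 (0.131) and CADPS (0.140). SAA2 was closest to MAOB (0.149), H19 (0.168) and MT1E (0.180). CD55 was closest to ARHGAP44 (0.054), APOE (0.078) and CCDC88B (0.094), and CD59 to CDK2AP1 (0.040), EBNA1BP2 (0.043) and PPP1R14B (0.043). C1R was closest to ARSG (0.123), LOC100506688 (0.153) and METTL4 (0.163), and C1S to MYH3 (0.072), SUMO3 (0.093) and DHODH (0.096). With 6 libraries in 2 groups, these distances mostly reflect the size of the group difference on this scale. Adding 0.5 CPM shrinks that difference for genes near 0 in a group, so fitted log2 fold changes of neighbours could still be far apart. They were 6.94 for CFB, against 11.76 for RNASE1, 13.72 for FOXA1 and 11.80 for CADPS. Those of CD59 (1.29) and CDK2AP1 (1.33) were close.

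The other genes of these pathways were taken from lists that leave the members out, tested with the same fit across all genes (edgeR quasi-likelihood test, Benjamini-Hochberg adjustment over all genes). Log2 fold changes below are siOSBPL3 over siNC, ± SE. The classical and lectin arms were hardly expressed: of 15 components 8 were in the table and 1 passed the filter. That was C2, the convertase protease of these arms, at 6.08 ± 0.64 CPM in siOSBPL3 and 3.42 ± 0.46 CPM in siNC (SD, n = 3 each), a log2 fold change of 0.83 ± 0.20 (adjusted p = 0.0021). Correcting for GC content and length ended this call (0.39, adjusted p = 0.086). C4A and C4B, near-identical copies of the C4 gene that C1s cleaves, summed to 10 and 17 reads over siOSBPL3 and 23 and 4 over siNC.

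Of 9 alternative pathway and terminal components 4 were in the table and 3 were tested, with 1 higher, 1 lower and 1 that did not pass. The shares over all genes tested were 40.4% higher and 39.8% lower. CFD, the factor D that cleaves factor B, rose, at 9.09 ± 2.31 CPM in siOSBPL3 and 1.48 ± 0.17 CPM in siNC (2.62 ± 0.24, adjusted p = 6.0e-07, and 1.21 with the GC and length correction). C5, from which the terminal pathway starts, fell, at 6.92 ± 1.14 CPM in siOSBPL3 and 36.4 ± 1.85 CPM in siNC (-2.39 ± 0.13, adjusted p = 7.6e-09, and -1.71 with the correction). CFP, or properdin, which steadies the convertase, did not pass (-0.24 ± 0.56, adjusted p = 0.70), at -1.05 without siOSBPL3 replicate 3 and -1.33 with the correction (adjusted p = 0.055). So within the alternative pathway C3, CFB and CFD were higher in siOSBPL3 while C5 was lower.

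Of 15 soluble regulators, 4 were in the table, 3 were tested and all 3 rose, though 2 of them, VTN and C4BPA, passed the filter only through siOSBPL3, which fixed their direction. Among all genes tested 40.4% were higher. CLU, or clusterin, a chaperone that also blocks the membrane attack complex, stood at 470.5, 499 and 480 CPM in siOSBPL3 and at 5.21, 3.98 and 3.81 CPM in siNC (6.80 ± 0.13, adjusted p = 2.3e-12). VTN, or vitronectin, had 759 reads over siOSBPL3 and 1 over siNC, a ratio of 647 (counting interval 116 to 25600). C4BPA, the alpha chain of C4b-binding protein, had 304 and 3 reads (ratio 86.4, interval 29.3 to 421), the siNC reads all in replicate 3.

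Membrane regulators beside CD55 and CD59 did not all share their direction. Of 7 listed, 4 were tested, with 1 higher, 2 lower and 1 that did not pass, beside 40.4% higher and 39.8% lower among all genes tested. CD46, the cofactor for cleavage of C3b, fell, at 157, 169 and 186 CPM in siOSBPL3 and 500.3, 491 and 484 CPM in siNC (-1.53 ± 0.09, adjusted p = 9.6e-09). Of the 3 widely expressed membrane regulators, CD55 and CD59 were thus higher and CD46 lower in siOSBPL3. SUSD4, which passed the filter only through siOSBPL3, rose, with 941 reads over siOSBPL3 and 2 over siNC (ratio 401, interval 111 to 3320). THBD, or thrombomodulin, had no read in siOSBPL3 and 59 over siNC, at least 23.1-fold lower with that floor. It passed the filter only through siNC. The filter thus fixed the direction of SUSD4 and THBD, and CD46 was the only call free to go either way. CSMD3 did not pass (-0.16 ± 0.28, adjusted p = 0.61), except when GC content and length were corrected for (0.86, adjusted p = 0.017).

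Since CD55 and CD59 need a GPI anchor to reach the surface, the genes that build and remodel it were followed. Of 30 tested, 11 rose, 9 fell and 10 did not pass, with a median log2 fold change of -0.02. These counts stand beside 40.4% higher and 39.8% lower among all genes tested. PIGA, a subunit of the enzyme of the first step, fell (-1.79 ± 0.10, adjusted p = 9.3e-09), as did PIGL, of the next step (-2.17 ± 0.11, adjusted p = 4.9e-09), and PGAP1, which removes an acyl chain from the anchor (-3.85 ± 0.13, adjusted p = 1.4e-10). PIGQ, another subunit of the first enzyme, rose (1.98 ± 0.10, adjusted p = 4.3e-09). The GC and length correction brought PIGA, PGAP1 and PIGQ to -1.20, -2.62 and 0.79.

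Of 18 receptors for complement fragments and acute phase proteins, 14 were in the table and 9 were tested, with 6 higher, 2 lower and 1 that did not pass, beside 40.4% higher and 39.8% lower among all genes. However, 5 of the 6 that were higher passed the filter only through siOSBPL3, which fixed their direction, and SCARB1 was the other one. SCARB1, a receptor of high-density lipoprotein that also binds serum amyloid A, rose, at 157 ± 19.5 CPM in siOSBPL3 and 46.7 ± 1.65 CPM in siNC (1.75 ± 0.10, adjusted p = 9.4e-09). Of those fixed by the filter, C5AR1, the receptor of C5a, rose (5.07 ± 0.31, adjusted p = 1.8e-08), at 6.79 CPM in siOSBPL3 and 0.198 CPM in siNC. ITGAX, the alpha chain of complement receptor 4, rose (5.67 ± 0.30, adjusted p = 4.9e-09), at 12.4 and 0.237 CPM. TLR2 also rose (5.79 ± 0.41, adjusted p = 6.1e-08, 6.72 without siNC replicate 1 and 6.37 with the GC and length correction), while C1QBP (-0.68 ± 0.09, adjusted p = 1.2e-05) and TLR4 fell, TLR4 with 1 read over siOSBPL3 and 67 over siNC (ratio 0.0127, interval 0.000318 to 0.0734). TLR4 passed the filter only through siNC, which fixed its direction. AGER did not pass (-0.09 ± 0.20, adjusted p = 0.71), except with the correction (-1.03, adjusted p = 8e-04).

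Other acute phase proteins went both ways. Of 25 listed, 16 were in the table and 8 were tested, with 3 higher, 4 lower and 1 that did not pass (median 0.43). The shares over all genes tested were 40.4% higher and 39.8% lower. LRG1, a secreted glycoprotein of the acute phase, rose, at 51.7, 50.1 and 50.9 CPM in siOSBPL3 and 2.22, 2.71 and 2.23 CPM in siNC (4.41 ± 0.12, adjusted p = 2.6e-11). The others that rose were the protease inhibitor gene SERPINA3 (4.84 ± 0.73, adjusted p = 7.8e-05) and ITIH4 (1.58 ± 0.36, adjusted p = 0.0015). SERPINA3 stood at 10.4, 2.30 and 2.1 CPM in siOSBPL3 replicates 1, 2 and 3, against 0.122, 0.181 and 0.202 CPM in siNC. Replicate 1 was thus the highest siOSBPL3 library for this gene. SERPINA3 passed the filter only through siOSBPL3, and without replicate 1 the log2 fold change was 3.69. The fibrinogen genes fell: FGA had no read in siOSBPL3 and 242 over siNC, at least 94.6-fold lower, and FGG had 1 read in siOSBPL3 and 212 in siNC (ratio 0.00402, interval 0.000101 to 0.0227), and both passed the filter only through siNC. FN1, or fibronectin, fell (-4.00 ± 0.40, adjusted p = 1.3e-06, and -4.78 without siOSBPL3 replicate 2). Its siOSBPL3 replicate 1, at 0.166 CPM, was under the filter cutoff of 0.29 CPM. Replicates 2 and 3 of siOSBPL3, at 0.848 and 0.354 CPM, were over that cutoff. By its siOSBPL3 libraries alone FN1 would thus not have passed the filter, which favoured a lower call but did not fix its direction. SERPINA1 fell slightly (-0.34 ± 0.09, adjusted p = 0.0029). HPX, or hemopexin, did not pass (1.20 ± 0.58, adjusted p = 0.077), except without siOSBPL3 replicate 3 (1.47, adjusted p = 0.049). HPX was at 1.81 without siNC replicate 2 and 0.54 with the correction.

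Of 20 inducers and their receptors, 15 were tested, with 12 higher, 2 lower and 1 that did not pass, beside 40.4% and 39.8% of all genes. Of the 12, IL1A and IL1R1 passed the filter only through siOSBPL3, which fixed their direction. IFNGR1, the ligand-binding chain of the interferon-gamma receptor, rose, at 473, 414 and 451.5 CPM in siOSBPL3 and 70.02, 72.1 and 65.5 CPM in siNC (2.69 ± 0.09, adjusted p = 1.2e-10). The TNF receptor gene TNFRSF1A (1.77 ± 0.09, adjusted p = 4.7e-09), the IL-1 receptor gene IL1R1 (6.0 ± 0.32, adjusted p = 4.8e-09) and LIF, a cytokine of the IL-6 family (2.27 ± 0.14, adjusted p = 1.4e-08), also rose. IL1A had 364 reads over siOSBPL3 and none over siNC, at least 103-fold higher. Those that fell were IL1RAP, the co-receptor of IL1R1 (-1.48 ± 0.16, adjusted p = 2.5e-06), and IL11 (-0.76 ± 0.28, adjusted p = 0.026), and IL10RB did not pass (0.05 ± 0.09, adjusted p = 0.62), except after correcting for GC content and length (0.37, adjusted p = 0.00081). The IL11 call was lost without siNC replicate 1 (adjusted p = 0.052) or 3 (0.17), without siOSBPL3 replicate 3 (0.058) and with the replicate number as a block (0.057). The GC and length correction brought TNFRSF1A to 1.07, and without siNC replicate 3 IL1R1 was at 6.60.

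Of 16 transcription factors and regulators of the acute phase, all tested, 11 rose, 3 fell and 2 did not pass. Among all genes tested 40.4% were higher and 39.8% lower. CEBPA rose, at 34.1 ± 2.67 CPM in siOSBPL3 and 3.10 ± 0.19 CPM in siNC (3.46 ± 0.13, adjusted p = 2.2e-10). NFKBIZ, a nuclear coactivator that NF-kB needs for Lcn2 in mouse macrophages, rose, at 52.9, 77.5 and 71.0 CPM in siOSBPL3 and 11.6, 11.0 and 10.7 CPM in siNC (2.60 ± 0.14, adjusted p = 5.3e-09). The subunits of the non-canonical NF-kB arm, NFKB2 (2.11 ± 0.08, adjusted p = 3.0e-10) and RELB (2.77 ± 0.13, adjusted p = 2.0e-09), rose as well. Those that fell were REL (-1.62 ± 0.10, adjusted p = 2.1e-08), HNF4A (-1.24 ± 0.09, adjusted p = 5.2e-08) and CEBPG (-0.28 ± 0.11, adjusted p = 0.0395). SOCS3 was among those that did not pass (0.40 ± 0.29, adjusted p = 0.22, and -0.39 with the correction, adjusted p = 0.23). The CEBPG call was lost when siNC replicate 1, 2 or 3 was left out in turn, and without siOSBPL3 replicate 2 or 3. It was also lost with library totals, among genes averaging 5 CPM or more and with the GC and length correction, where its sign turned. Adjusted p ran from 0.067 to 0.54 over these alternatives. The correction brought CEBPA to 2.28, NFKB2 to 1.26, RELB to 1.58 and REL to -0.56. Of those counted as rising, it brought CEBPB from 1.57 to 0.27 (adjusted p = 0.042) and CEBPD from 1.52 to 0.017 (adjusted p = 0.94). RELA turned from 0.27 (adjusted p = 0.046) to -0.28 (adjusted p = 0.021), and its call changed in 9 of 16 alternatives.

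Of 20 antimicrobial genes of mucosal epithelium, the group to which LCN2 belongs, 11 were in the table and 6 were tested, with 5 higher and 1 lower, beside 40.4% and 39.8% of all genes. Of the 5, DEFB1, PIGR and DUOX2 passed the filter only through siOSBPL3 and LYZ, the lower one, only through siNC, which fixed their direction. SLPI, a protease inhibitor of mucosal secretions, stood at 117, 61.1 and 63.8 CPM in siOSBPL3 replicates 1, 2 and 3, against 3.44, 4.73 and 3.27 CPM in siNC (4.40 ± 0.30, adjusted p = 6.5e-07, and 3.6 with the GC and length correction). Replicate 1 was the highest siOSBPL3 library for SLPI, but the lowest for CHI3L1 (9.165, 12.9 and 11.6 CPM in siOSBPL3 replicates 1, 2 and 3). CHI3L1 rose (4.77 ± 0.26, adjusted p = 5.8e-09, and 4.16 with the correction), as did the oxidase gene DUOX2 (2.97 ± 0.51, adjusted p = 0.00018). DEFB1, a defensin, had 134 reads in siOSBPL3 and none in siNC (at least 38.1-fold higher), and PIGR, the transporter of IgA, had 53 and none (at least 15.1-fold higher). LYZ, or lysozyme, fell (-3.39 ± 0.81, adjusted p = 0.0020, and -6.84 without siOSBPL3 replicate 1).

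**Figure D4:**
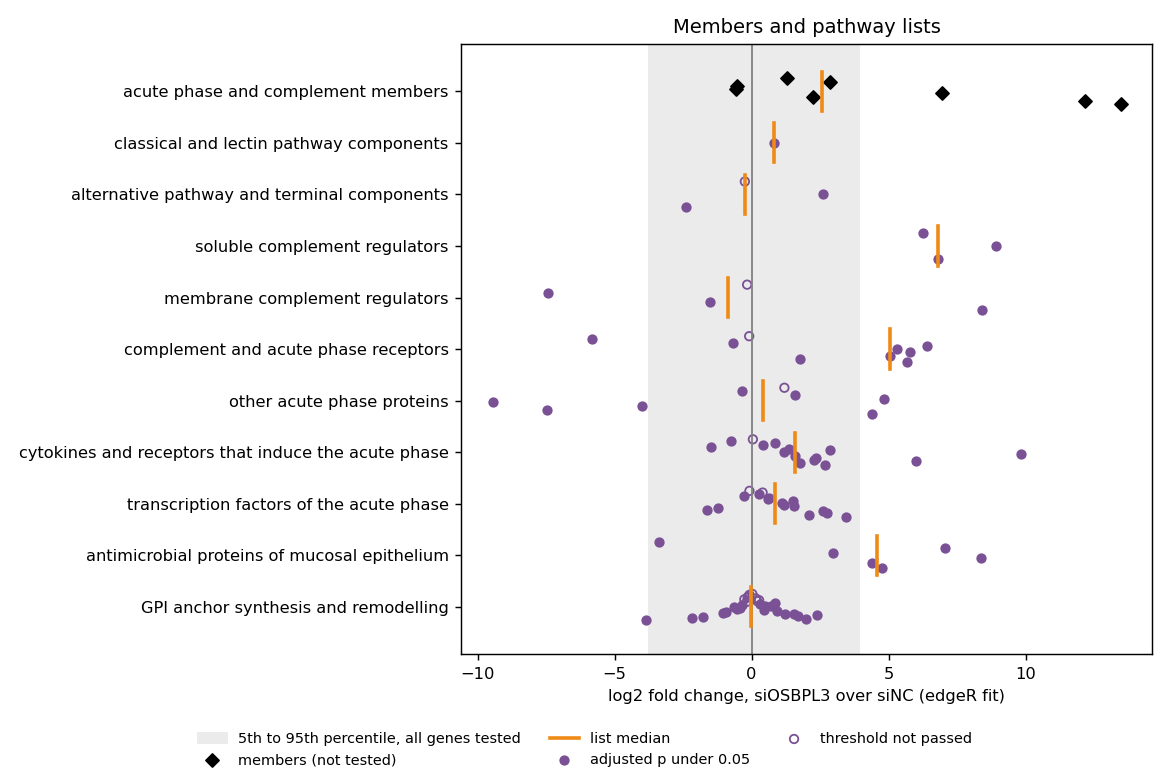
Log2 fold change, siOSBPL3 over siNC, of the 8 measured members (diamonds, not tested) and of the tested genes of each pathway list (circles, filled where the adjusted p is under 0.05). Orange bars are list medians, and the grey band is the 5th to 95th percentile of all 15506 genes tested. SAA2, LCN2 and CFB lie beyond the band, and the genes of GPI anchor synthesis lie on both sides of 0, from PGAP1 at -3.85 to PGAP3 at 2.39, with a median of -0.02.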

How the data were processed

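RNA-seq counts of 6 libraries of SW620 cells, 3 siOSBPL3 and 3 siNC, were used. The deposited table holds counts: whole numbers of reads for each gene symbol, without normalization. Per the submitters' processing notes, the tools were HISAT2 2.2.1 and HTSeq 0.13.5, with the genome build GRCh38 (hg38). The annotation, strand setting and counting options are not given in the sources used here, so reads of overlapping, antisense or near-identical genes cannot be told apart. Groups and replicate numbers came from sample titles, and columns were matched by library name.

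edgeR 4.0.16 (R 4.3.3) tested the counts: filterByExpr (minimum count 10, total 15), TMM scaling, a robust quasi-likelihood fit on group, two-sided, with p-values adjusted by Benjamini-Hochberg over 15506 genes and called under 0.05. Each SE was taken as the log2 fold change (siOSBPL3 over siNC) over the square root of F. The members and the pathway lists were chosen with earlier results of these data known, so members carry no test and lists no set test. Named genes are the members, their 3 nearest profiles, up to 4 genes per list with the smallest adjusted p and those that complete a count of 5 or fewer. IL1A, C4A, C4B, CEBPB, CEBPD and RELA were named after their values were seen. A gene that this rule would name is not reported here. Floors are 3 counts over a group, and counting intervals are exact binomial. Total counts ranged from 30040020 to 39701340. Every pair of replicates differed by more than sampling noise (chi-square over degrees of freedom 2.94 or more). The test was checked on simulated counts with 200 changed genes. In the data 80.2% of genes tested were called, so this check does not cover scaling or error control at such a share. Alternatives were DESeq2 1.42.0, limma-voom (limma 3.58.1), RLE factors, library totals, other filters, a threshold of 0.01, the replicate block, each library left out, and a per-library smooth correction for GC content and length (mgcv 1.9.3, GENCODE 29, 89.1% of tested genes). Promoters came from RefSeq, GRCh38.p14.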

Additional observations from a re-analysis of the deposited data

How the results depend on the processing

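Over 16 alternatives the count of members at least 2-fold higher was 6 in each, and no member's fold change changed sign. The threshold of 0.01 is among these alternatives, but it leaves fold changes as they are and could not alter either result. Across all alternatives genes called higher ran from 4724 to 6605 and lower from 4672 to 6553. Over all results, 37 values moved beyond their spread, 34 calls were lost, 20 gained and 10 values called in at least 1 of the fits turned in sign. The other 1939 of 2040 values kept their call, 11 of them turning in sign where neither fit called them (SOCS3 to -0.39 with the correction, for example). The 10 turned with the GC and length correction: IFNGR2 to -0.10, CEBPG to 0.084, RELA to -0.28, PIGK to 0.21, PIGM to 0.37, DPM2 to -0.57, CSMD3 to 0.86, PIGN to 0.75, PIGP to 0.53 and PIGS to -0.29; the cause was not tested. Small list counts changed as follows. With a mean of at least 5 CPM, which leaves fewer genes, the number higher became 0 for classical and lectin components, 1 for soluble regulators, 0 for membrane regulators, 2 for receptors, 1 for other acute phase proteins and 2 for antimicrobial proteins, and the number lower 1, 1, 1, 1 and 0 for membrane regulators, receptors, other acute phase proteins, cytokines and receptors, and antimicrobial proteins. With the correction the number higher was 0 for classical and lectin components and 2 for membrane regulators. Alternative and terminal components had 2 higher with no filter, DESeq2 or the replicate block, and 1 to 2 with a library left out. Classical and lectin components had 1 lower with no filter or DESeq2. Cytokines and receptors had 1 lower with the replicate block or a threshold of 0.01, and 1 to 2 with a library left out. Same-numbered libraries did not deviate together (correlations of deviations -0.047, 0.011 and -0.051), so the replicate numbers were not taken as pairs, and under the block 6 members were still at least 2-fold higher. The SAA2 fold is limited by depth, since siNC held no read of it.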
